A study of Mus musculus with 6 samples.

Results

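The genes described here are 9 transporters of drugs and organic anions, taken by gene symbol: Abcb1a, Abcb1b, Abcc1, Abcc3, Abcc4, Abcc5, Abcg2, Slco2a1 and Slco3a1. All 9 of the 9 were listed among the 13595 genes of the deposited table, and all 9 passed the filter on low values. RNA was measured by poly(A) sequencing in primary cells selected for CD31, an endothelial surface marker, from livers of C57BL6/J mice aged 4 weeks and grown in culture. Every one of the 6 libraries received indoxyl sulfate at 100 µM together with 6 hours of hypoxia and nutrient deprivation. The 2 groups, 3 libraries labelled male and 3 labelled female, differ only in the sex on the label, so the data give 1 contrast. Untreated cells were not analysed here.

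The ABC transporters among the members are membrane pumps that use ATP to move substrates out of the cell. The Abcb1 genes encode P-glycoprotein, which exports hydrophobic drugs, and Abcg2 encodes the breast cancer resistance protein. The Abcc members encode multidrug resistance proteins, which export organic anions and conjugates. Slco genes encode organic anion transporting polypeptides, which carry anions such as prostaglandins and steroid conjugates across the membrane without ATP. Indoxyl sulfate, a uremic solute derived from tryptophan and a ligand of the aryl hydrocarbon receptor (AHR), is itself an organic anion. In liver endothelium, such transporters lie between the blood and the hepatocytes.

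Values are normalized read counts, that is, reads divided by 1 factor per library. The libraries held 22303270 to 31189363 reads, and each member was covered by at least 498 and at most 16852 reads in a library. In both groups the replicates differed by more than sampling noise (chi-square per gene from 4.35 to 45.4 within a group), and male 4 stood apart from male 5 and male 6 (43.6 and 45.4, against 5.98 between those). Xist was at 0.124 to 0.458 in the libraries labelled male and 234 to 324 in those labelled female, but the Y-linked Ddx3y was at 47.2 to 76.3 and 48.5 to 57.7. Uty did not pass the test either, while the Y-linked Eif2s3y (58.1 ± 2.97 and 29.8 ± 0.411) and Kdm5d (34.8 ± 3.61 and 19.1 ± 1.61, SD, n = 3, male and female labels) were lower under the female label but not absent. Y-linked RNA in the libraries labelled female goes against their label, and every direction given here rests on the labels. The labels do not say whether replicates are separate mice or cultures, so the p-values measure only the spread between these libraries, which may be technical.

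The contrast was broad, and the members' calls are to be read against it. With limma on log2(value + 1), 69.3% of 12568 tested genes had an adjusted p under 0.05 (34.6% were higher under the female label and 34.6% lower), and the groups did not overlap for 74.1%. Of the 9 transporters, 3 were higher (Abcc4, Abcb1b and Abcc1), 3 were lower (Slco3a1, Abcc3 and Slco2a1) and 3 passed no threshold (Abcb1a, Abcg2 and Abcc5). The groups did not overlap for 6 of the 9. Both shares are near those of all tested genes. The median log2 fold change was -0.04 over the 9 members and 0.01 over all tested genes.

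**Figure D1:**
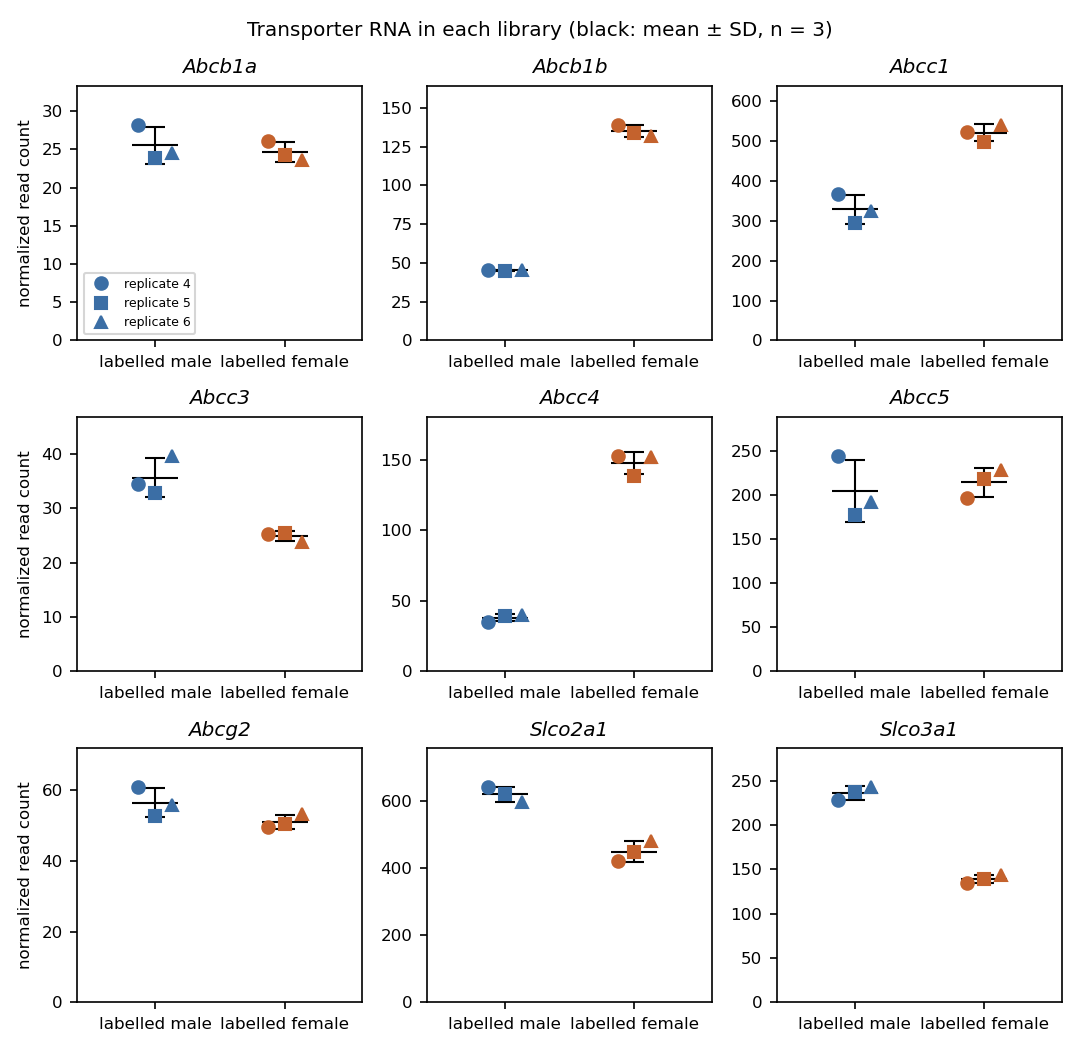
Normalized read count of each transporter (y axis, from 0) in the 3 libraries labelled male and the 3 labelled female, with a circle, square or triangle for replicate 4, 5 or 6 and the mean ± SD in black. The groups lie fully apart for Abcb1b, Abcc1, Abcc3, Abcc4, Slco2a1 and Slco3a1 and overlap for Abcb1a, Abcc5 and Abcg2.

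The Abcb1a and Abcb1b genes are the mouse pair that shares the role of the single human P-glycoprotein gene, and their transcripts are partly alike. Both lie on chromosome 5, each with 3831 coding bases, of which 88.2% of 3819 aligned positions are identical (GENCODE M21, GRCm38). The longest identical run is 338 bases. Of the 50-base words of the transcripts, 18.6% of those of Abcb1a and 19.6% of those of Abcb1b also occur in another gene. The 90 coding bases in which they differ most, 29 differences, are shown because reads from such places tell the genes apart. Capitals mark the differing bases. The stretch starts at coding base 1883 of Abcb1a and 1892 of Abcb1b.
Abcb1a: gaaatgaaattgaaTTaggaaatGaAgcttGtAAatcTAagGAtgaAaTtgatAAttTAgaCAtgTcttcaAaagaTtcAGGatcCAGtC
Abcb1b: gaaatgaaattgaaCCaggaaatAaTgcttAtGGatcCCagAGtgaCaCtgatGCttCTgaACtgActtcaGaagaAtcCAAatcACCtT
Exons of Abcb1a and Abcb1b also overlap annotated antisense genes over 4.84% and 2.42% of their length, and whether the counting used strand is not given in the sources used here.

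Abcb1b was about 3 times as high in the libraries labelled female, whereas no difference in Abcb1a was called. Abcb1b was read at 45.2, 45.0 and 45.7 in male 4, 5 and 6 and at 139, 134 and 132 in female 4, 5 and 6. All 3 libraries labelled female stood above all 3 labelled male, and replicates lay close together in both groups. Its mean was 135 ± 3.38 against 45.3 ± 0.364 (SD, n = 3), and the log2 fold change was 1.55 (adjusted p 1.49e-07 with limma, SE 0.06). Abcb1a was read at 28.2, 23.8 and 24.5 in the libraries labelled male and at 26.1, 24.2 and 23.6 in those labelled female. These ranges overlap. Its log2 fold change was -0.04 with a 95% confidence interval from -0.25 to 0.16 (limma adjusted p 0.690). The sign of this small value turned without male 4 (0.03) and under quantile normalization (0.01).

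Within the pair, Abcb1b took a larger share in every library labelled female. Abcb1b made up 61.6%, 65.5% and 65.1% of the sum of both genes in male 4, 5 and 6, and 84.1%, 84.8% and 84.8% in female 4, 5 and 6. The groups did not overlap, with means of 64.1% ± 2.13 and 84.6% ± 0.362 (SD, n = 3). The difference of 20.5 percentage points gave p = 0.1 in an exact two-sided permutation test, the smallest p that 3 against 3 libraries allow. Per kilobase of transcript the shares were 67.4% and 86.4%. Since reads from the shared stretches can be assigned to either gene, the sum was also tested as 1 feature. It ran from 68.8 to 73.4 in the libraries labelled male and from 155 to 165 in those labelled female, a log2 fold change of 1.16 (adjusted p 7.22e-07 with limma, SE 0.06).

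**Figure D2:**
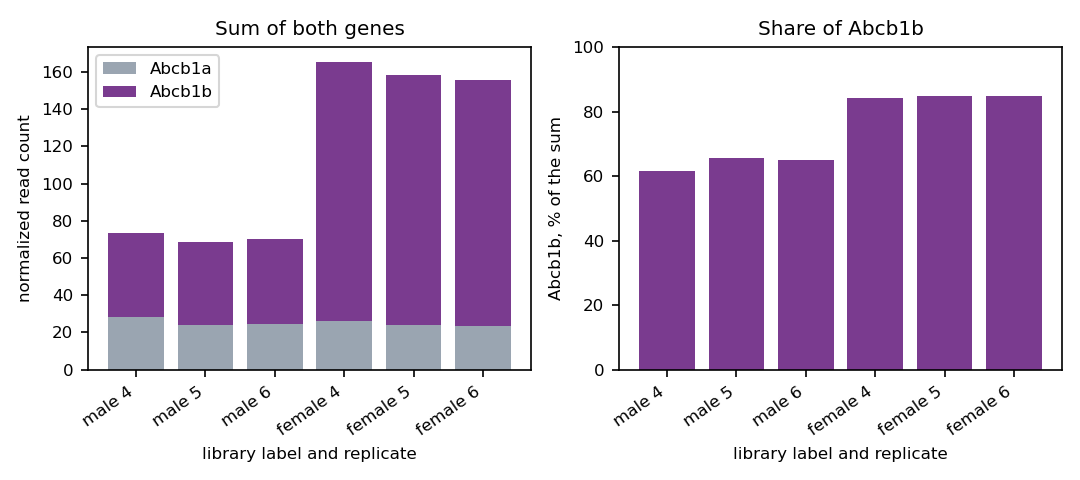
Left, normalized read counts of Abcb1a and Abcb1b stacked for each library. Right, the percent of that sum that was Abcb1b, which was 61.6% to 65.5% in the libraries labelled male and 84.1% to 84.8% in those labelled female.

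Among the multidrug resistance proteins, Abcc4 and Abcc1 were higher in the libraries labelled female, Abcc3 fell, and no difference in Abcc5 was called. Abcc4 exports cyclic nucleotides, prostaglandins and organic anion conjugates. It was read at 35.3, 39.1 and 40.0 in male 4, 5 and 6, and at 153, 139 and 152 in female 4, 5 and 6. The libraries fell into clearly separate ranges. The mean of 148 ± 8.01 was 3.87 times that of 38.2 ± 2.49 (SD, n = 3), and the log2 fold change of 1.93 (adjusted p 1.94e-07 with limma, SE 0.07) had a larger absolute size than those of 94.0% of all tested genes.

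Abcc1 exports glutathione conjugates and the lipid mediator leukotriene C4. Its normalized read counts were 366, 294 and 325 in the libraries labelled male and 523, 498 and 540.3 in those labelled female. The groups did not overlap, and male 4 lay nearest to the other group. The log2 fold change was 0.67 (adjusted p 0.000158 with limma, SE 0.08), from 328 ± 35.9 to 521 ± 21.1 (SD, n = 3). A smaller absolute change was found in 65.2% of tested genes.

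Abcc3, an exporter of glucuronides and bile acids on the basolateral membrane of hepatocytes, was read at 34.4, 32.7 and 39.6 in the libraries labelled male. In those labelled female it was read at 25.3, 25.4 and 23.8, all of them below the lowest male-labelled value. Its log2 fold change was -0.50 (adjusted p 0.00113 with limma, SE 0.09). Abcc5, an exporter of cyclic nucleotides and nucleotide analogues, was read at 245, 178 and 192 in male 4, 5 and 6 and at 197, 219 and 229 in female 4, 5 and 6. The ranges overlap because male 4 had the highest value of the 6. The log2 fold change was 0.08, with a 95% confidence interval from -0.19 to 0.35 (limma adjusted p 0.576). Male 4 decides this call: without it, Abcc5 was higher in the libraries labelled female (0.21, limma adjusted p 0.0155), and without male 5 the value was -0.02.

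Abcg2, which exports sulfate conjugates and urate and has been reported to export indoxyl sulfate, did not pass the threshold. It was read at 61.0, 52.8 and 55.8 in the libraries labelled male and at 49.5, 50.6 and 53.2 in those labelled female. The ranges overlap by a small margin, at male 5 and female 6. Its log2 fold change was -0.14 with a 95% confidence interval from -0.31 to 0.03 (limma adjusted p 0.120). The value was below 0 in all 16 alternatives of test, scaling, filter, threshold or left-out library. All of these reuse the same libraries, and the fold-change threshold repeats the main value.

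Under the female label both Slco members were lower. Slco2a1 encodes the prostaglandin transporter, which takes prostaglandins up from outside the cell before they are broken down. It was read at 641, 620.4 and 595 in male 4, 5 and 6 and at 419, 448 and 479 in female 4, 5 and 6. Every library labelled male was above every library labelled female. Means were 619 ± 23.1 and 449 ± 30.0 (SD, n = 3), for a log2 fold change of -0.46 (adjusted p 0.000383 with limma, SE 0.07). Slco3a1, a widely expressed organic anion carrier, was read at 228, 237 and 243 in the libraries labelled male and at 135, 139.6 and 144 in those labelled female. The groups did not overlap and replicates were tight in both. Its log2 fold change of -0.76 (adjusted p 7.24e-06 with limma, SE 0.06) was the lowest of the 9, at 59.0% of the male-labelled level.

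**Figure D3:**
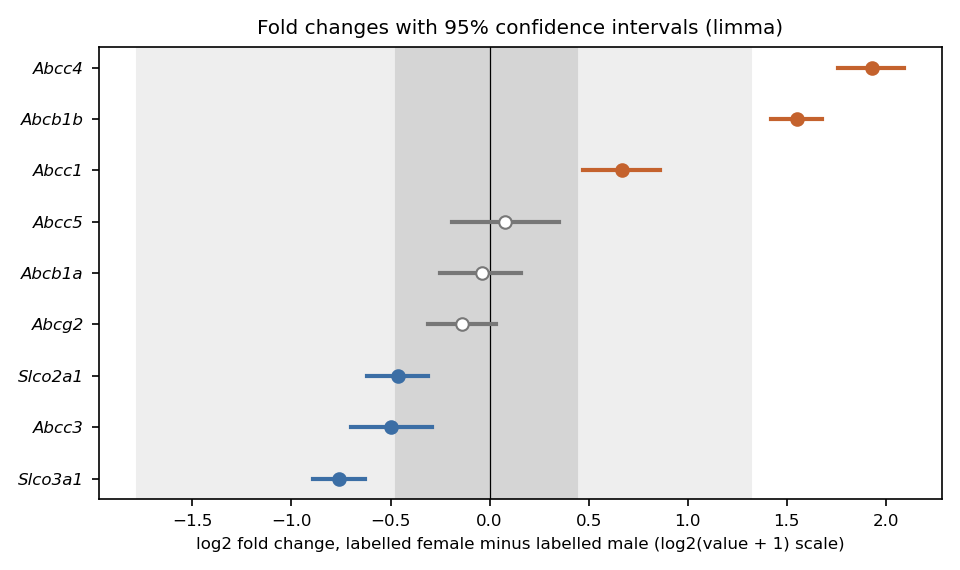
Log2 fold change of each transporter (x axis, libraries labelled female minus those labelled male, log2(value + 1) scale) with its 95% confidence interval from limma. Filled points had an adjusted p under 0.05, the dark band holds the tested genes from the 25th to the 75th percentile (-0.47 to 0.44), the light band runs from their 5th to their 95th percentile (-1.78 to 1.32), and Abcc4 (1.93) and Abcb1b (1.55) lie beyond it.

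In the authors' deposited table, 2 of the 9 genes had a false discovery rate under 0.05, where 25.8% of all 13595 genes did. They were Abcb1b, with a fold change of 2.98 and a false discovery rate of 4.92e-05, and Abcc4, with 3.87 and 6.97e-05, both in the authors' deposited table. Abcc1 (1.59, 0.0620) and Slco3a1 (-1.69, 0.150) came next in the authors' deposited table. Slco2a1 (0.428), Abcc3 (0.316), Abcg2 (0.791), Abcc5 (0.902) and Abcb1a (0.951) had higher false discovery rates in the authors' deposited table. All 9 directions there matched those found with limma, but Abcc1, Abcc3, Slco2a1 and Slco3a1 did not pass the threshold there.

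Levels of different genes were compared per kilobase of the longest coding transcript in GENCODE M21. In the libraries labelled male, Slco2a1 had the highest level (86.9 ± 3.25 per kilobase, SD, n = 3). Slco3a1 (51.5 ± 1.70) and Abcc1 (48.4 ± 5.29) followed and did not differ beyond their spread. Abcc5 came next (35.3 ± 6.06). Lower levels were found for Abcb1b (10.5 ± 0.0846), Abcg2 (9.89 ± 0.725), Abcc3 (7.10 ± 0.715), Abcc4 (6.68 ± 0.436) and Abcb1a (5.10 ± 0.473). On this scale, Abcb1b could not be told from Abcg2, nor Abcc3 from Abcc4, beyond their spread.

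In the libraries labelled female the order of the levels was different. Abcc1 stood first (76.7 ± 3.10 per kilobase), above Slco2a1 (63.0 ± 4.22). Abcc5 (36.9 ± 2.80), Abcb1b (31.3 ± 0.785), Slco3a1 (30.4 ± 0.914) and Abcc4 (25.9 ± 1.40) now lay close together, and Abcb1b and Slco3a1 did not differ beyond their spread. Abcg2 (8.94 ± 0.338), Abcc3 (4.96 ± 0.179) and Abcb1a (4.93 ± 0.258) remained low, the last pair not told apart. As a share of the summed level per kilobase, Slco2a1 was 32.4% to 34.8% in the libraries labelled male and 21.2% to 22.9% in those labelled female. Abcc1 was 17.3% to 19.5% and 26.4% to 27.8%, and Abcc4 was 2.24% to 2.73% and 8.71% to 9.67%. The sum itself was 251 to 276 and 277 to 293 per kilobase. The order depends on the length used: over coding length alone, Slco2a1 stood first in both groups, and under the male label Abcg2 (28.6 ± 2.10 per coding kilobase) stood above Abcb1b (11.8 ± 0.0951, SD, n = 3).

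**Figure D4:**
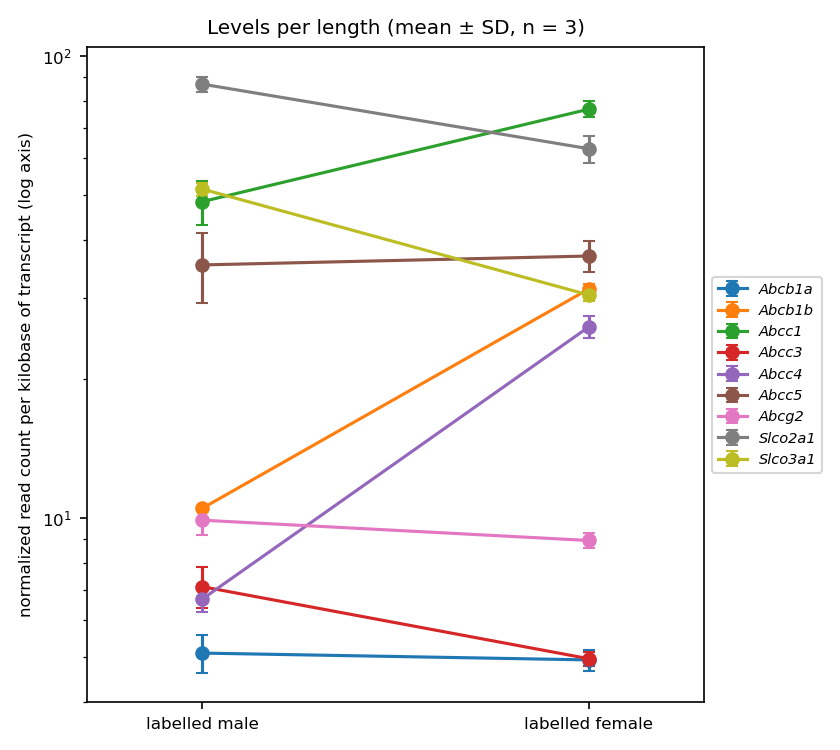
Level of each transporter per kilobase of transcript (log axis, mean ± SD, n = 3) in the libraries labelled male (left) and female (right), with a line joining the means of a gene. Abcc1 (48.4 to 76.7) crosses Slco2a1 (86.9 to 63.0), and Abcc4 (6.68 to 25.9) and Abcb1b (10.5 to 31.3) move from the lower into the middle range.

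Promoter sequence was looked at for the pair with the largest increases. RefSeq promoters (GRCm38.p6, 250 bases before to 50 after the start) were found for 6 of the 9 members. They were searched on both strands for GCGTG, the core of the AHR response element, ACGTG, the core of the hypoxia response element, and TGACNNNGC, the core of the antioxidant response element. Capitals mark the matches, and a match to the opposite strand appears as its reverse complement.
Abcb1b (chr5:8797897-8798196, + strand): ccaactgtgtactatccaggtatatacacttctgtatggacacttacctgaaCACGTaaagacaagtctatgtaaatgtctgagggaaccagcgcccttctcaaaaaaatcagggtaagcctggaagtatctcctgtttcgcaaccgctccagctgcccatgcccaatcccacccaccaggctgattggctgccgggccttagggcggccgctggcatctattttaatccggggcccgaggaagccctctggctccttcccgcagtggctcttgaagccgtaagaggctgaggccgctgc
Abcc4 (chr14:118706170-118706469, - strand): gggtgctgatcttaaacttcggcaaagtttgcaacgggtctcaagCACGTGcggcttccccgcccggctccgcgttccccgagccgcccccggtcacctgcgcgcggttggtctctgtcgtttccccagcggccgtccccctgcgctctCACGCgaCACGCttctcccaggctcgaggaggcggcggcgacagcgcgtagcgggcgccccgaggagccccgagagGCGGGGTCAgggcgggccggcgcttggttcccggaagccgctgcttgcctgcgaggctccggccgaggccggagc
The Abcb1b window held 1 match to ACGTG, 198 bases before the start, and 0 to the other motifs. The Abcc4 window held 2 matches to GCGTG, 101 and 94 bases before the start, 2 to ACGTG that are the opposite strands of 1 palindrome, and 1 to TGACNNNGC. Over all 32851 promoter windows, 32.4% held GCGTG, 19.6% held ACGTG and 12.4% held TGACNNNGC. A second RefSeq start of Abcc4, 29274 bases from the GENCODE start, held 1 match to TGACNNNGC and 0 to the other motifs. Slco2a1, which was lower, held 1 match to ACGTG. Of the genes not called, Abcc5 held 0 of the 3 motifs, and of 3 starts of Abcg2 the third, 43875 bases from the GENCODE start, held 1 match to GCGTG and the others 0. The RefSeq start of Abcb1a lies 92986 bases from the start of its GENCODE coding transcript, so its window, with 1 match to TGACNNNGC, is not shown. A match is a description of letters, and binding was not measured.

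Related genes were counted by lists, beside the 34.6% of all tested genes called in each direction. A gene that reached 1 in the libraries of 1 label only passed the filter through the group where it is high, so its difference was needed for it to be tested. Counts without such genes stand beside the full ones. Without them, 33.9% of the remaining 11882 genes were called higher and 33.6% lower. Of 21 other genes of subfamilies B, C and G, 13 were tested, with 4 called higher and 7 lower (median log2 fold change -0.46, also when Abcg3, which is at the floor of 3 reads, takes its bound). Among the 10 that did not depend on 1 group to pass, 3 were higher and 5 lower. Tap1 and Tap2, which load peptides for antigen presentation, had the lowest log2(value + 1) differences, a scale that shrinks those of weakly expressed genes, with Tap1 at 95.8 ± 4.71 and 25.1 ± 1.43 (SD, n = 3, male and female labels, limma adjusted p 1.98e-07) and Tap2 at a log2 fold change of -1.60. Abcc9, a regulatory subunit of potassium channels, passed through the male label alone, at 1.37 to 1.95 against 0.221 to 0.249. Abcb10, a mitochondrial transporter, was higher (0.49). Abcb11, the bile salt export pump of hepatocytes, passed through the female label alone, at 2.37 to 2.92 against 0.106 to 0.249. Without female 4 or without female 5, 2 rather than 4 of these genes were called higher, Abcb11 being 1 of the 2 lost, by the filter and so by construction. The cause of the other loss was not tested.

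Of 24 genes of subfamilies A, D, E and F, 16 were tested, with 5 called higher and 5 lower (median 0.15), shares near those of all tested genes. Among the 14 that did not depend on 1 group to pass, 4 were higher and 4 lower. On the log2(value + 1) scale the higher ones were led by Abce1 (0.92), a ribosome recycling factor, Abca7 (0.69) and Abcf2 (0.64). By ratio of means Abca4 (2.22) stood above Abce1 (1.89). Abca4 passed through the female label alone, at 1.16 to 1.85 against 0.581 to 0.706. Abcd4 (-1.07) was lower. Abcd2, a peroxisomal fatty acid transporter, passed through the male label alone, at 2.70 to 2.94 against 0.332 to 0.415. Without male 4, 8 rather than 5 were called higher.

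Few of the other organic ion carriers could be analysed here. Of 33 listed, 10 were in the table and 9 tested, with 2 called higher, 3 lower and 4 uncalled (median -0.11), beside 34.6% of all tested genes in each direction. Among the 8 that did not depend on 1 group to pass, 1 was higher and 3 lower. Slc10a6, a carrier of sulfated steroids, was at 9.43 ± 1.33 and 2.23 ± 0.562 (SD, n = 3, male and female labels), a log2 fold change of -1.70. Slc22a17 (-1.32) and Slc10a7 (-0.65) were lower too. Slc22a4 (0.53), a carnitine and ergothioneine carrier, was higher. Slco5a1 passed through the female label alone, at 2.95 to 3.51 against 0.153 to 0.498, so that leaving out any single library labelled female removed it by the filter, and 1 gene was called higher. The kidney-type importers of indoxyl sulfate, Slc22a6 and Slc22a8, were not analysed here.

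Receptors and factors known to regulate drug transporters were mostly lower in the libraries labelled female. Of 16 tested, 13 were called lower and 2 higher (median -0.50), where 34.6% of all tested genes were called in each direction. Hif1a, the oxygen-regulated subunit, was at 1565 ± 370.4 and 339 ± 40.8 (SD, n = 3, male and female labels), a log2 fold change of -2.18 (limma adjusted p 1.03e-05), and Epas1 (-2.02) and Pparg (-1.21) were lower too. Nfe2l2, which encodes NRF2, was at -0.64, Arnt at -0.57 and Ahr at -0.27. Trp53 was higher (0.52). Ahrr, the AHR repressor, passed through the female label alone, at 1.59 to 1.71 against 0.373 to 0.706, and leaving out any library labelled female removed it by the filter. Among the other 15, 13 were lower and 1 higher.

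Genes of glutathione synthesis, breakdown and conjugation are given beside Abcc1, which exports glutathione conjugates. Of 10 tested, 5 were called higher and 2 lower (median 0.41), and 69.3% of all tested genes were called in either direction. Among the 9 that did not depend on 1 group to pass, 5 were higher and 1 lower. Gclm, the modifier subunit of the rate-limiting synthesis enzyme, was at 81.0 ± 4.00 and 243 ± 14.5 (SD, n = 3, male and female labels), a log2 fold change of 1.57. Chac1 (1.75), which degrades glutathione, and Gss (1.11), the glutathione synthetase, were higher, and the membrane transferase Mgst3 (-1.36) was lower. Its relative Mgst2 passed through the male label alone, at 6.96 ± 2.57 against 0.565 ± 0.137 (SD, n = 3). Without male 5 or without male 6, 1 rather than 2 genes was called lower, Mgst2 being lost to the filter by construction.

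Prostaglandins are substrates of Slco2a1 and Abcc4. Of 14 tested genes of prostaglandin synthesis, breakdown and reception, 5 were called higher and 7 lower (median -0.27), beside 34.6% of all tested genes in each direction. Among the 13 that did not depend on 1 group to pass, 5 were higher and 6 lower. Ptgs2, the inducible cyclooxygenase, was at 96.5 ± 25.2 and 857 ± 145 (SD, n = 3, male and female labels), a log2 fold change of 3.15 (limma adjusted p 1.70e-06). Pla2g4a, which releases arachidonic acid, was higher (1.55), as was Akr1b3 (1.28). Ptges, a prostaglandin E synthase, was lower at 53.6 ± 7.77 against 276 ± 51.3 (SD, n = 3), and the receptor Ptger4 was lower (-1.45). The prostacyclin receptor Ptgir passed through the male label alone, at 2.10 ± 1.14 against 0.278 ± 0.0985 (SD, n = 3).

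Cyclic nucleotides are substrates of Abcc4 and Abcc5. Of 20 tested genes of their synthesis and breakdown, 15 were called lower and 3 higher (median -1.11, also when Pde9a, which is at the floor, takes its bound), beside 34.6% of all tested genes in each direction. Pde9a passed through the male label alone, and among the other 19 genes 14 were lower and 3 higher. Pde4b, a cAMP phosphodiesterase, was at 238 ± 29.4 and 25.9 ± 4.42 (SD, n = 3, male and female labels), a log2 fold change of -3.16. The cyclase Adcy4 (-2.82) and the natriuretic peptide receptor Npr1 (-2.66) were lower too. As ratios of means the order differs: Npr1 was at 7.89% of the male-labelled level, Adcy4 at 9.54% and Pde4b at 10.9%. Adcy7 (1.59), Pde7a (0.51) and Pde5a (0.34) were higher.

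**Figure D5:**
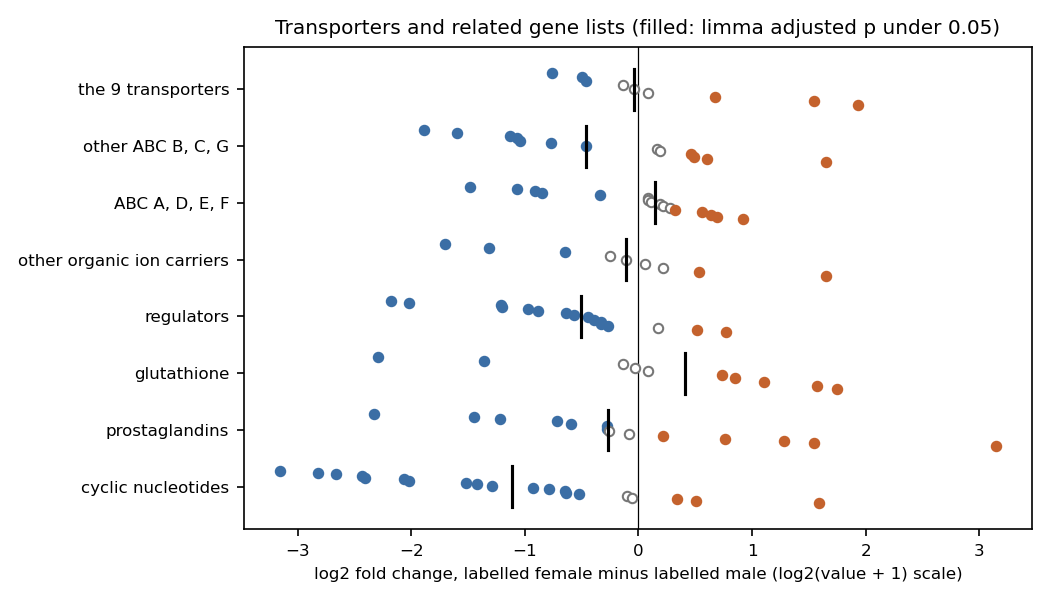
Log2 fold change (x axis, libraries labelled female minus those labelled male, log2(value + 1) scale) of every tested gene of the 9 transporters and the 7 related lists. Orange and blue points were called higher and lower with limma, open points were not called, and black bars are medians, from -1.11 for cyclic nucleotide genes to 0.41 for glutathione genes. Genes that passed the filter through 1 label alone are drawn like the others.

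Markers of cell types moved with the contrast beside all of these results, and their part in them was not tested. Of 14 tested endothelial markers, 12 were called lower and 1 higher (10 and 1 without Robo4 and Vwf, which passed through the male label alone), and their summed level was 2411 to 2524 in the libraries labelled male and 1221 to 1276 in those labelled female. Pecam1, which encodes CD31, was at 391 to 423 and 73.5 to 74.5. Of 9 markers of liver sinusoidal endothelium, 6 were too low to test, among them Stab2, and Clec4g and Fcgr2b had at most 3 reads in any library. Of the 3 tested, Lyve1 and Stab1 were lower and Gata4 was higher. The sinusoidal sum was 494 to 533 and 40.0 to 42.0, with Lyve1 at 498 ± 24.8 and 4.98 ± 0.566 and Gata4 at 3.75 ± 0.0909 and 32.1 ± 0.858 (SD, n = 3). Of 11 tested stellate, fibroblast and mural markers, 8 were lower and 3 higher (7 and 3 without Lum, which passed through the male label alone), with sums of 2847 to 3636 and 2601 to 3024. Acta2, a smooth muscle actin singled out after its values were seen, was at 45.9 to 134 and 1513 to 1887. The sum of the other 11 markers in the table was 2790 to 3502 and 1088 to 1137, but not all of them were lower. Myh11 (1.41 to 1.79 and 103 to 147) and Des (6.97 to 9.11 and 12.5 to 16.9) were called higher like Acta2, against 8 markers called lower. The log2 fold change of Myh11 (5.54) was larger than that of Acta2 (4.57). The 5 tested cholangiocyte markers had 4 lower and 1 higher, with sums of 1643 to 2492 and 512 to 613. Hepatocyte markers summed to 1.84 to 2.33 and 2.61 to 3.18, the latter mostly Abcb11, which is counted in both lists, and macrophage markers to 7.51 to 9.99 and 13.1 to 15.4. None of the 8 lymphocyte markers was analysed here. In bulk RNA, fewer cells of a type and less RNA per cell cannot be told apart.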

How the data were processed

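Poly(A) RNA was sequenced from 6 libraries, 3 with each sex label. The deposited signal values are read counts that the authors divided by 1 factor per library: dividing each column by its lowest nonzero entry gave whole reads for 100% of values (tolerance 0.001). Bowtie2, RSEM, edgeR and the build mm39 are named in the submitters' processing notes, without role, and the rule behind the detectable genes is not given in the sources used here. A further deposited column, used as a score, holds a linear fold change with a sign. P-values and false discovery rates of that comparison were deposited too. No column of per-sample values was left without a sample (0).

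Log2(value + 1) was fitted with limma 3.58.1 (R 4.3.3, trended eBayes) for genes that reached 1 in 3 or more libraries, with Benjamini-Hochberg adjustment over all 12568 genes and a threshold of 0.05. Fold changes on this scale understate those of weakly expressed genes. A gene with at most 3 reads in every library of a group is at the floor, which covers counting error only. The scripts were tested on simulated data. The members and lists were chosen with earlier results of these data known, so no list is independent evidence. Named list genes are up to 3 called genes in each direction with the greatest change and groups apart, plus any listed regulator. Some genes that this rule names are not reported here. The pathway lists are those given above, and the marker lists are of endothelial, sinusoidal, hepatocyte, macrophage, stellate, cholangiocyte and lymphocyte genes. Lengths and shared 50-base words came from GENCODE M21 and promoters from RefSeq (both GRCm38), matched by symbol, because no annotation of the authors' build was used here. Alternatives were edgeR 4.0.16 and DESeq2 1.42.0 on recovered reads, other scalings, filters and pseudocounts, a replicate block, a fold-change threshold, summing the Abcb1 pair and leaving out each library.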

Additional observations from a re-analysis of the deposited data

How the results depend on the processing

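Of 144 member fold changes under the alternatives, 136 kept direction and call. Those under the fold-change threshold repeat the main fit, so only their calls could change. A minimum change of 1 (log2, either direction) left 2589 of 8704 genes, 0 of the 3 lower members, and no call for Abcc1 (0.67), Abcc3 (-0.50), Slco2a1 (-0.46) or Slco3a1 (-0.76), by its construction. Abcb1a was above 0 under quantile normalization (0.01) and without male replicate 4. The sum of Abcb1a and Abcb1b, which is not an estimate of Abcb1a alone, was at 1.16. Over the fits that left out 1 library, Abcb1a ran from -0.09 to 0.03 and Abcc5 from -0.02 to 0.21, called without male replicate 4, and the cause was not tested. Abcb1b ran from 1.53 to 1.57 and Abcc4 from 1.87 to 1.97 there. There, 7373 to 9113 genes were called. Unfiltered data gave 9085 calls, and a minimum of 10 reads per library 8236. Under quantile normalization 55.4% of calls were higher (4934 of 8908), and the median of all genes moved by less than 0.1 under every scaling (0.00 to 0.08). The Abcb1b share differed by 20.5 points over reads and 19.0 per kilobase.

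Of 224 recomputed list counts, 201 stayed within 1.5 times. With the fold threshold of 1, the counts called higher became 1 for other ABC subfamilies B, C and G, 0 for A, D, E and F, 1 for carriers, 0 for regulators, 3 for glutathione, 3 for prostaglandins and 1 for cyclic nucleotides. The counts called lower became 2 for A, D, E and F, 4 for regulators and 3 for prostaglandins. With at least 10 reads in every library, 1 carrier and 1 regulator were called higher. A gene under 1 in 1 group fails the filter by construction when a library of the other is left out, which concerns Abcb11, Abcc9, Abcg3, Abca4, Abcd2, Slco5a1, Ahrr, Mgst2, Ptgir and Pde9a. Leaving out 1 library, the counts called higher ran from 2 to 4 (B, C and G), 4 to 8 (A, D, E and F), 1 to 2 (carriers) and 1 to 3 (regulators), and the glutathione genes called lower from 1 to 3.

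Pairing by replicate number was not seen: same-numbered libraries had deviations that correlated at -0.09, -0.03 and -0.17. The replicate block gave 8314 calls, and no member changed its call or direction. Each member had at least 498 reads in every library, and the effect of depth on the calls was not tested.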
